A study of Mus musculus with 17 samples.

Results

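The integrated stress response and the unfolded protein response were followed through 10 genes in mouse dorsal hippocampus. The genes were chosen by a rule on symbols alone, as Atf4 pathway and endoplasmic reticulum stress genes. They were Atf4, Ddit3, Xbp1, Trib3, Asns, Chac1, Sesn2, Herpud1, Sdf2l1 and Creld2, and all 10 were found among the 24498 gene symbols of the count table. Poly(A) RNA from slices of dorsal hippocampus holding the CA fields and the dentate gyrus was sequenced in 17 libraries. Mice were either wild type (WT) or knockout (KO) for Acss2, whose product, acetyl-CoA synthetase 2, turns acetate into acetyl-CoA. Both genotypes came from homozygous crosses within a line bred from heterozygotes. At 6 months of age the mice had been injected into the dorsal hippocampus with pathological tau purified from human Alzheimer's disease frontal cortex (Tau) or with phosphate-buffered saline (PBS), and the tissue was examined 6 months after injection. Males made up 4 groups of 3 libraries (WT PBS, WT Tau, KO PBS and KO Tau). Females had been given Tau only, in groups of 2 (WT) and 3 (KO) libraries, so Tau could not be compared with PBS in females, and the tau was of human origin in mice that make their own tau.

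Cells that cannot load tRNAs, that run short of amino acids or that accumulate misfolded protein phosphorylate the translation factor eIF2alpha. This lowers general translation while the transcription factor ATF4 is made in larger amounts, and ATF4 switches on genes of amino acid supply and of stress adaptation. Misfolded protein in the endoplasmic reticulum also activates the sensors IRE1 and ATF6, which act through spliced XBP1 and cleaved ATF6 on genes of chaperones and of protein degradation. ATF4 is controlled mainly in translation and XBP1 by splicing, so the messenger RNA level of either is a partial readout of its activity, and counts per gene do not show the splicing. In neurons, eIF2alpha phosphorylation is known for its part in memory and has been studied in tau disease.

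The binding elements of these pathways were looked for in the promoters, because they show which of the 10 genes carry a documented type of response element close to the start. RefSeq promoter sequences (assembly GRCm38.p6, 250 bases before and 50 after the start) were found for all 10 genes and for 32851 entries in all. The searched letters, on both strands, were TGATGNAA for the C/EBP-ATF response element (CARE) bound by ATF4, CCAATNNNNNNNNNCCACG for the endoplasmic reticulum stress element bound by ATF6 with NF-Y, ATTGGNCCACG for its second form, and TGACGTGG for the unfolded protein response element. None of these motifs overlapped another in the 10 genes. Matches before the start lay in 4 genes, shown here with 11 bases on either side and the match in capitals.

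Asns, chr6:7693214-7693243, minus strand, CARE at bases -23 to -16 from the start: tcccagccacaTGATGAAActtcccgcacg
Chac1, chr2:119351038-119351067, plus strand, CARE in reverse orientation at bases -193 to -186: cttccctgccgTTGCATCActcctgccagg
Herpud1, chr8:94386306-94386398, plus strand, CARE in reverse orientation at bases -112 to -105 and the second form of the stress element at bases -52 to -42: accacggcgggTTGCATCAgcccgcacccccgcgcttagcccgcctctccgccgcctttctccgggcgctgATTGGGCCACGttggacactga
Creld2, chr15:88819509-88819549, plus strand, stress element in reverse orientation at bases -126 to -108: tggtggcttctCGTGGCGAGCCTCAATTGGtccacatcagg

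A CARE match was present in 3 of the 10 genes before the start and in 3.45% of all promoters. Over the whole 300 bases it was present in 4 of 10, since Trib3 held a match after its start, and in 3.97% of all promoters. The stress element was found in 0.113% of all promoters before the start, and Creld2 was its only match among the 10 genes. Its second form was found in 0.0304%, and Herpud1 was the only match. The unfolded protein response element, held by 0.563% of promoters before the start, was in none of the 10 windows. A match is a description of letters, and elements farther from the start were not searched. The printed Asns window lies within the first exon of a longer GENCODE transcript, whose start is farther upstream than the RefSeq start.

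**Figure D1:**
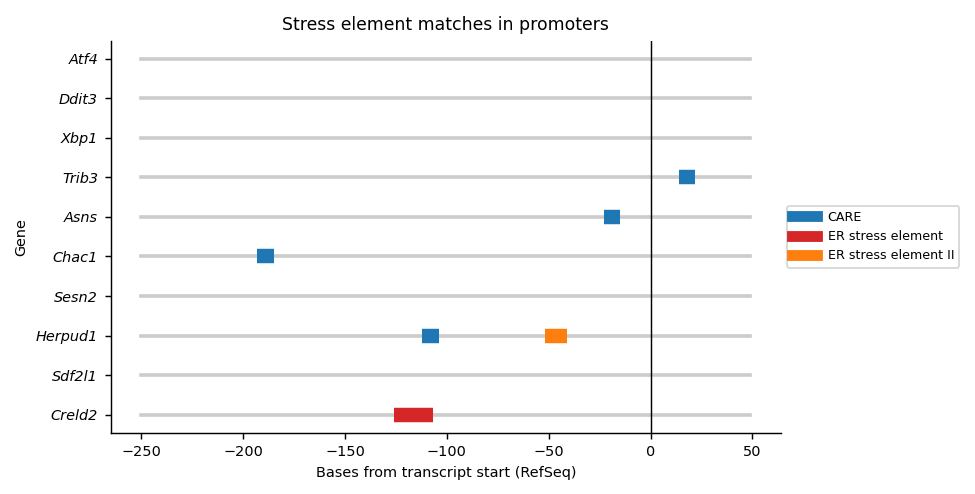
Positions of motif matches (coloured bars) in the 300-base promoter windows of the 10 genes, in bases from the RefSeq transcript start (vertical line at 0). Chac1, Herpud1 and Creld2 hold matches between bases -193 and -42, Asns holds one close to the start, and Trib3 holds one after it.

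Depth was similar among libraries. Total counts ran from 14183131 to 22463635 per library, and 3 counts, the limit that a count of 0 allows, equalled 0.134 to 0.212 CPM (counts scaled to a common library total). Such limits cover counting error only. Acss2 lay at 44.0 to 54.6 CPM in the 8 WT libraries and at 3.07 to 8.81 CPM in the 9 KO libraries, so no library went against its genotype label. Markers of dentate granule cells, CA1 pyramidal cells, astrocytes and the other hippocampal cell types were all above 0 in every library. A few libraries stood apart in markers of neighbouring tissue or of other cell types. The summed level of 8 astrocyte markers was 4072 CPM in male KO Tau library 711, against 2084 to 2866 CPM in the 11 other male libraries and 4279 to 5997 CPM in the 5 female libraries. The summed level of 8 striatal markers was 595.6 CPM in male KO PBS library 752 and 117 to 215.6 CPM in the others. The summed level of 14 choroid plexus markers reached 4137 CPM in male KO Tau library 713. The summed level of 8 thalamic markers was 163.1 to 293.4 CPM in the 12 male libraries. It was 501.4, 329.8, 572.3 and 396.2 CPM in female libraries 331, 341, 324 and 325, and 173 CPM in female library 314. The summed level of 10 oligodendrocyte markers was 12150 CPM in female WT Tau library 331 and 2979 to 7564 CPM in the male libraries. In bulk tissue, fewer cells of a type and less RNA per cell cannot be told apart.

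Across the 6 groups, the 10 genes spanned a wide range of levels. Scaled to exon length, the level was highest for Atf4, at 54.2 ± 6.72 CPM per kb (SD, n = 17 libraries), followed by Asns at 38.8 ± 7.83, Xbp1 at 25.1 ± 4.40 and Herpud1 at 22.1 ± 4.31 CPM per kb. Ddit3 (14.2 ± 2.57 CPM per kb), Sdf2l1 (14.0 ± 3.73) and Creld2 (12.6 ± 2.34) formed a middle range, with Sesn2 (4.35 ± 0.762) and Chac1 (4.18 ± 0.901) below. Trib3 was lowest at 0.292 ± 0.105 CPM per kb. Neighbours in this order did not differ beyond their spread between Xbp1 and Herpud1, among Ddit3, Sdf2l1 and Creld2, and between Sesn2 and Chac1.

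The 10 genes did not move as a block. By the edgeR quasi-likelihood F-test over all 6 groups, a difference passed a false discovery rate (FDR) of 0.05 for 2 of 10, Sesn2 (FDR = 0.00344) and Asns (FDR = 0.0457), beside 19% of all genes tested. The next lowest value was that of Herpud1 (FDR = 0.17). When each library was left out in turn, Sesn2 was called in 17 of 17 fits and Asns in 2 of 17, those without libraries 711 or 712. Both calls were made over groups that include females, and within males no member passed the FDR in any of the 8 comparisons of genotype and injection.

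**Figure D2:**
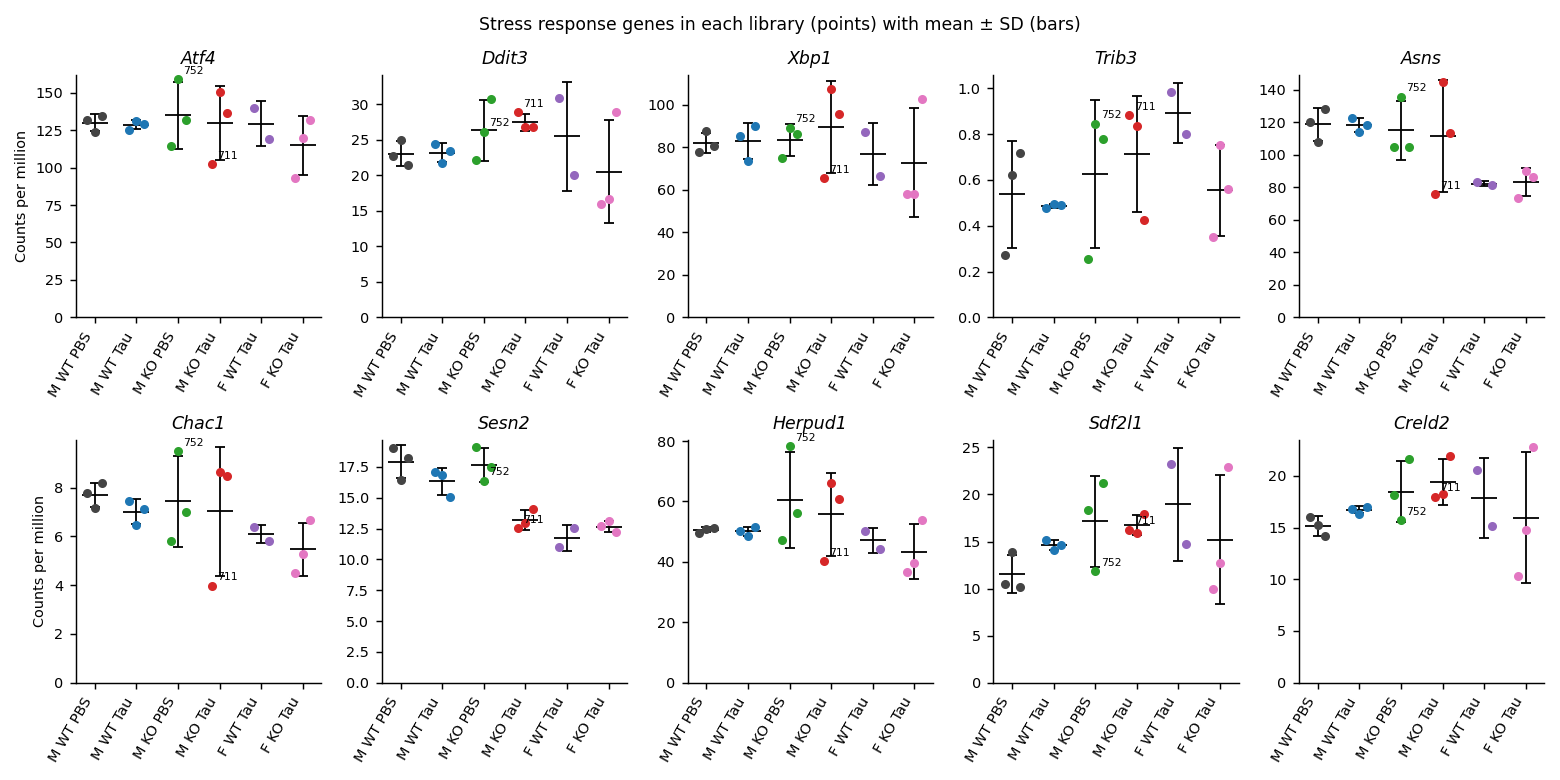
CPM of each gene in each library (points) by group, with the group mean and SD (bars, n = 3, or n = 2 for female WT Tau); M and F stand for male and female, and libraries 711 and 752 are labelled. Sesn2 in male KO Tau, at 12.6 to 14.1 CPM, sits below the 9 other male libraries, and Asns is lowest in the 5 female libraries and in library 711.

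Gene positions are those of GENCODE M21 on GRCm38. The transcription factors are given first. Atf4 (chr15:80255184-80257541, plus strand) encodes the central transcription factor of the integrated stress response. It lay at 132, 124 and 135 CPM in male WT PBS (libraries 791, 792 and 793) and at 125, 131 and 129 CPM in male WT Tau (libraries 771, 772 and 773). In the knockout it was more scattered, at 114, 159 and 132 CPM in male KO PBS (libraries 751, 752 and 753) and 102, 151 and 136 CPM in male KO Tau (libraries 711, 712 and 713). The same library order is used below. Library 752 was the highest and library 711 the lowest of the males. In females Atf4 was at 140.0 and 119 CPM in WT Tau (libraries 331 and 341) and at 93.4, 119.9 and 132 CPM in KO Tau (libraries 314, 324 and 325). All groups overlapped, and the difference of male KO Tau from male WT PBS was 0.00 on the log2 scale (SE 0.139, edgeR FDR = 0.998).

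Ddit3 (chr10:127290774-127296288, plus strand) encodes CHOP, a transcription factor that ATF4 induces and that promotes cell death under lasting stress. It lay at 22.6, 24.9 and 21.5 CPM in male WT PBS and at 24.5, 21.7 and 23.4 CPM in male WT Tau. It was at 22.1, 26.1 and 30.7 CPM in male KO PBS and at 28.8, 26.7 and 26.7 CPM in male KO Tau. The male KO Tau libraries lay above those of male WT PBS, where 14.4% of all genes did not overlap. They also lay above those of male WT Tau, where 12.6% of all genes did not overlap. The log2 difference from male WT PBS was 0.26 (SE 0.116) and that from male WT Tau 0.26 (SE 0.116), and neither passed (edgeR FDR = 0.784 and 0.927). In females the order was not the same, with 30.9 and 20.0 CPM in WT Tau and 16.005, 16.6 and 28.9 CPM in KO Tau, where the groups overlapped and the log2 difference of KO from WT was -0.27 (SE 0.219, edgeR FDR = 0.997).

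Xbp1 (chr11:5520659-5525893, plus strand) encodes the factor whose transcript IRE1 splices. It lay at 77.9, 87.4 and 80.6 CPM in male WT PBS, 85.2, 73.4 and 90.0 CPM in male WT Tau, 74.9, 89.2 and 86.1 CPM in male KO PBS and 65.4, 107 and 95.4 CPM in male KO Tau. Females were at 87.0 and 66.4 CPM in WT Tau and at 57.9, 57.8 and 102 CPM in KO Tau. The male KO Tau libraries held both the lowest and the highest male value, and the difference from male WT PBS was 0.13 on the log2 scale (SE 0.156, edgeR FDR = 0.909).

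Among the genes that act under ATF4, Sesn2 had the lowest unadjusted p within males. It encodes sestrin 2, a leucine-binding inhibitor of mTORC1 that stress induces. Sesn2 (chr4:132492032-132510501, minus strand) lay at 19.1, 16.4 and 18.3 CPM in male WT PBS, at 17.1, 16.8 and 15.1 CPM in male WT Tau and at 19.1, 16.4 and 17.5 CPM in male KO PBS. In male KO Tau it lay at 12.6, 12.9 and 14.1 CPM, below all 9 other male libraries, a position held by 0.762% of all genes tested. This share counts lower genes only, whereas the other shares without overlap count both directions. Female values were also low, at 10.998 and 12.5 CPM in WT Tau and at 12.7, 13.1 and 12.2 CPM in KO Tau, and overlapped male KO Tau.

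In edgeR the log2 difference of Sesn2 in male KO Tau was -0.47 from male KO PBS (SE 0.101, unadjusted p = 0.000652, FDR = 0.55), -0.43 from male WT PBS (SE 0.101, FDR = 0.783) and -0.28 from male WT Tau (SE 0.101, FDR = 0.927). None passed the FDR, and the 3 comparisons share the male KO Tau libraries. Tau against PBS in WT males gave -0.15 (SE 0.101, FDR = 1), and KO against WT under PBS gave 0.04 (SE 0.1, FDR = 0.999). The averaged difference of Tau from PBS in males was -0.31 (SE 0.0713, edgeR FDR = 0.888). The interaction of genotype and tau was -0.32 (SE 0.143, FDR = 0.996), so that the tau difference was not shown to differ between genotypes. With the DESeq2 Wald test in place of edgeR, and in edgeR without libraries 711 and 752 together, the fall of Sesn2 from male KO PBS to male KO Tau passed, at -0.47 (DESeq2 FDR = 0.0476) and -0.49 (edgeR FDR = 0.0244). These fits called 0.328% and 10.4% of all genes, and the 1 member of 10 called in the latter is at the share of all genes.

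Asns (chr6:7675169-7693254, minus strand) encodes asparagine synthetase, which makes asparagine from aspartate and is a classical ATF4 target. It lay at 120.1, 108 and 128 CPM in male WT PBS, at 123, 114 and 118 CPM in male WT Tau and at 105, 136 and 105 CPM in male KO PBS. In male KO Tau it was at 75.9, 145 and 114 CPM, so this group held the lowest and the highest male library. Females were at 83.2 and 81.3 CPM in WT Tau and at 73.5, 90.1 and 86.4 CPM in KO Tau. All 5 female libraries lay below the 11 male libraries other than 711, and 711 lay among the females. In edgeR the log2 difference of male KO Tau from male WT PBS was -0.09 (SE 0.187, FDR = 0.953), and it turned to 0.12 without library 711.

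Chac1 (chr2:119351229-119354381, plus strand) encodes a glutathione-degrading enzyme that ATF4 and CHOP induce. It lay at 7.78, 7.18 and 8.17 CPM in male WT PBS, at 7.45, 6.46 and 7.14 CPM in male WT Tau, at 5.83, 9.49 and 7.00 CPM in male KO PBS and at 3.97, 8.65 and 8.47 CPM in male KO Tau. Females were at 6.37 and 5.83 CPM in WT Tau and at 4.51, 5.26 and 6.65 CPM in KO Tau. Library 711 was the lowest of all 17, and the log2 difference of male KO Tau from male WT PBS went from -0.12 (SE 0.257, edgeR FDR = 0.953) to 0.15 without it.

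Trib3 (chr2:152337422-152344032, minus strand) encodes a pseudokinase that ATF4 and CHOP induce and that restrains ATF4 in turn. It was near the limit of detection, with 5 to 18 counts per library. Trib3 lay at 0.274, 0.620 and 0.716 CPM in male WT PBS, at 0.477, 0.493 and 0.492 CPM in male WT Tau, at 0.254, 0.846 and 0.778 CPM in male KO PBS and at 0.883, 0.834 and 0.423 CPM in male KO Tau. In females it lay at 0.984 and 0.801 CPM in WT Tau and at 0.353, 0.752 and 0.560 CPM in KO Tau. The female difference of KO from WT was -0.62 on the log2 scale (SE 0.437, edgeR FDR = 0.997), and that of male KO Tau from male WT PBS was 0.40 (SE 0.485, FDR = 0.909). A difference in Trib3 was not detectable at this depth.

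Herpud1, Sdf2l1 and Creld2 encode proteins of the endoplasmic reticulum. Herpud1 (chr8:94386438-94395377, plus strand) encodes a membrane protein of endoplasmic reticulum-associated degradation. It was tight in WT males, at 49.6, 51.0 and 51.2 CPM in PBS and 50.2, 48.4 and 51.6 CPM in Tau, and wide in KO males, at 47.1, 78.2 and 56.3 CPM in PBS and 40.3, 66.3 and 60.7 CPM in Tau. The coefficient of variation was 1.74% and 3.15% in the WT groups and 26.4% and 24.5% in the KO groups. Females lay at 50.1 and 44.3 CPM in WT Tau and at 36.6, 39.8 and 53.8 CPM in KO Tau. Library 752 was highest and 711 lowest among males. The log2 difference of male KO PBS from male WT PBS was 0.31 (SE 0.188, edgeR FDR = 0.999) and that of male KO Tau from male WT Tau was 0.18 (SE 0.188, FDR = 0.937). The first was 0.08 without library 752 and 0.45 without library 751.

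In male KO Tau, Herpud1 followed which libraries were kept. The group lay 0.15 above male WT PBS on the log2 scale with all male libraries (SE 0.188, edgeR FDR = 0.916). It was 0.33 without library 711 and 0.02 without library 712, neither called. In a fit of only these groups that also left out 711, chosen after seeing the data, the difference was 0.33 and passed in edgeR (SE 0.072, FDR = 0.0469) and in DESeq2 (FDR = 0.0166). These fits called 4.15% and 7.19% of all genes. Against male WT Tau the difference was 0.36 without 711 and 0.04 without 712, neither called, in the fit of all male libraries, and the fits of only the groups compared gave 0.36 (edgeR SE 0.0779, FDR = 0.0453, and DESeq2 FDR = 0.01), where 4.88% and 9.61% of all genes were called. No other member was called in these fits, which compare 2 KO libraries with 3 WT libraries. The study's own bulk comparison states 2 KO tau samples and does not name them. Without libraries 711 and 752 together, edgeR called Herpud1 against male WT Tau (FDR = 0.0408), beside 4.61% of all genes, and not against male WT PBS (FDR = 0.0766). Neocortical markers moved with these values in some libraries and not in others. All 8 were above 0 in every library, and their summed level was 548.3 and 585.7 CPM in the male KO Tau libraries 712 and 713, 208.7 to 338.9 CPM in the 6 male WT libraries and 162.7 CPM in 711. It was 793.2 CPM in 752, the library highest in Herpud1. In male KO PBS library 753, with Herpud1 at 56.3 CPM and so above every male WT library, it was 235.4 CPM, within the male WT range. In female KO Tau library 325, with Herpud1 at 53.8 CPM, it was 181.3 CPM. The part of neocortical tissue in the Herpud1 values was not tested.

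Sdf2l1 (chr16:17130138-17132383, minus strand) encodes a partner of chaperone complexes in the endoplasmic reticulum lumen. It lay at 10.5, 13.9 and 10.2 CPM in male WT PBS and at 15.2, 14.1 and 14.6 CPM in male WT Tau, so the Tau libraries all lay above the PBS libraries. It was at 18.4, 11.8 and 21.2 CPM in male KO PBS and at 16.3, 15.9 and 17.97 CPM in male KO Tau, and male WT PBS was the lowest male group. In females the values were 23.2 and 14.7 CPM in WT Tau and 9.94, 12.7 and 23.0 CPM in KO Tau. The log2 difference from male WT PBS was 0.62 in male KO PBS (SE 0.191, edgeR FDR = 0.999), 0.54 in male KO Tau (SE 0.192, FDR = 0.783) and 0.32 in male WT Tau (SE 0.192, FDR = 1). These differences share the male WT PBS libraries. Leaving out 1 library, that of male KO PBS ran from 0.46 (without 753) to 0.83 (without 752) and that of male WT Tau from 0.24 (without 793) to 0.49 (without 792). Male KO Tau lay above male WT Tau in all 3 libraries by 0.22 (SE 0.19, FDR = 0.932).

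Creld2 (chr15:88819646-88826683, plus strand) encodes a disulfide isomerase-like protein of the endoplasmic reticulum. It lay at 16.003, 15.3 and 14.1 CPM in male WT PBS, at 16.8, 16.3 and 16.98 CPM in male WT Tau, at 18.1, 15.7 and 21.6 CPM in male KO PBS and at 17.98, 18.2 and 21.9 CPM in male KO Tau. The male KO Tau libraries lay above those of male WT PBS (14.4% of all genes did not overlap) and of male WT Tau (12.6% of all genes). Female values were 20.6 and 15.1 CPM in WT Tau and 10.3, 14.8 and 22.8 CPM in KO Tau, which overlapped. From male WT PBS the log2 difference was 0.34 in male KO PBS (SE 0.122, edgeR FDR = 0.999), 0.36 in male KO Tau (SE 0.122, FDR = 0.783) and 0.13 in male WT Tau (SE 0.123, FDR = 1). Male KO Tau differed from male WT Tau by 0.24 (SE 0.122, FDR = 0.927). Leaving out 1 library, the difference of male KO PBS ran from 0.23 (without 753) to 0.44 (without 752), and that of male KO Tau from male WT Tau was 0.14 without 713.

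Counted by comparison, tau in WT males gave no call. For male WT Tau against male WT PBS, 0 of 10 members passed the FDR (0% of all genes) and 0 of 10 had an unadjusted p under 0.05 (1.86% of all genes), with a median log2 difference of -0.03 over the members and -0.01 over all genes. Sdf2l1 and Creld2 were the 2 members whose libraries did not overlap, both higher, where 12.2% of all genes did not overlap.

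The knockout under PBS, male KO PBS against male WT PBS, gave 0 of 10 members past the FDR (0.00662% of all genes) and 2 of 10 at an unadjusted p under 0.05, Sdf2l1 and Creld2, both higher (4.42% of all genes). The latter count ran from 1 (without 753 or 793) to 4 (without 751). Members were higher in 9 of 10 cases, with a median of 0.17 against 0.01 over all genes, and none had libraries that did not overlap (11.7% of all genes). The scatter of the KO PBS libraries, with 752 highest in Atf4, Chac1 and Herpud1 and lowest in its group in Sdf2l1 and Creld2, ran alongside the striatal and neocortical marker levels of that library (595.6 and 793.2 CPM). Its part in the result was not tested.

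Tau in the knockout, male KO Tau against male KO PBS, gave 0 of 10 past the FDR (0% of all genes) and Sesn2 alone at an unadjusted p under 0.05 and without overlap, lower (7.95% and 9.01% of all genes). The knockout under tau, male KO Tau against male WT Tau, gave 0 of 10 past the FDR (0.00662% of all genes) and 2 of 10 at an unadjusted p under 0.05, Ddit3 higher and Sesn2 lower (4.71% of all genes). Leaving out 1 library moved that count between 1 and 3. Ddit3, Sdf2l1 and Creld2 higher and Sesn2 lower were the 4 without overlap (12.6% of all genes).

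Male KO Tau against male WT PBS, where knockout and tau are combined, held the most members at an unadjusted p under 0.05. There were 4 of 10, with Ddit3, Sdf2l1 and Creld2 higher and Sesn2 lower, beside 6.33% of all genes. The same 4 had libraries that did not overlap (14.4% of all genes), and 0 of 10 passed the FDR (0.00662% of all genes). This count was not stable. It was 1 without library 713, which held the most choroid plexus markers, 2 without library 791 or 793, 3 without library 752 and 4 without library 711, and it was 1 when all 17 libraries shared a fit. The interaction of genotype and tau gave 0 of 10 past the FDR (0% of all genes) and Sesn2 at an unadjusted p under 0.05 (4.18%).

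Averaged over injections, the difference of KO from WT in males was 0.42 for Sdf2l1 (SE 0.135, edgeR FDR = 0.945), 0.29 for Creld2 (SE 0.0863, FDR = 0.945) and 0.25 for Ddit3 (SE 0.0818, FDR = 0.945) on the log2 scale. These were the 3 members at an unadjusted p under 0.05 (4.58% of all genes), and 0 of 10 passed the FDR (0.00662%). This count was 5 without library 711 or 751, 3 without any other male library and 1 when all 17 libraries shared a fit. Averaged over genotypes, Tau against PBS gave Sesn2 alone at an unadjusted p under 0.05 (5.38% of all genes) and 0 of 10 past the FDR (0%).

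**Figure D3:**
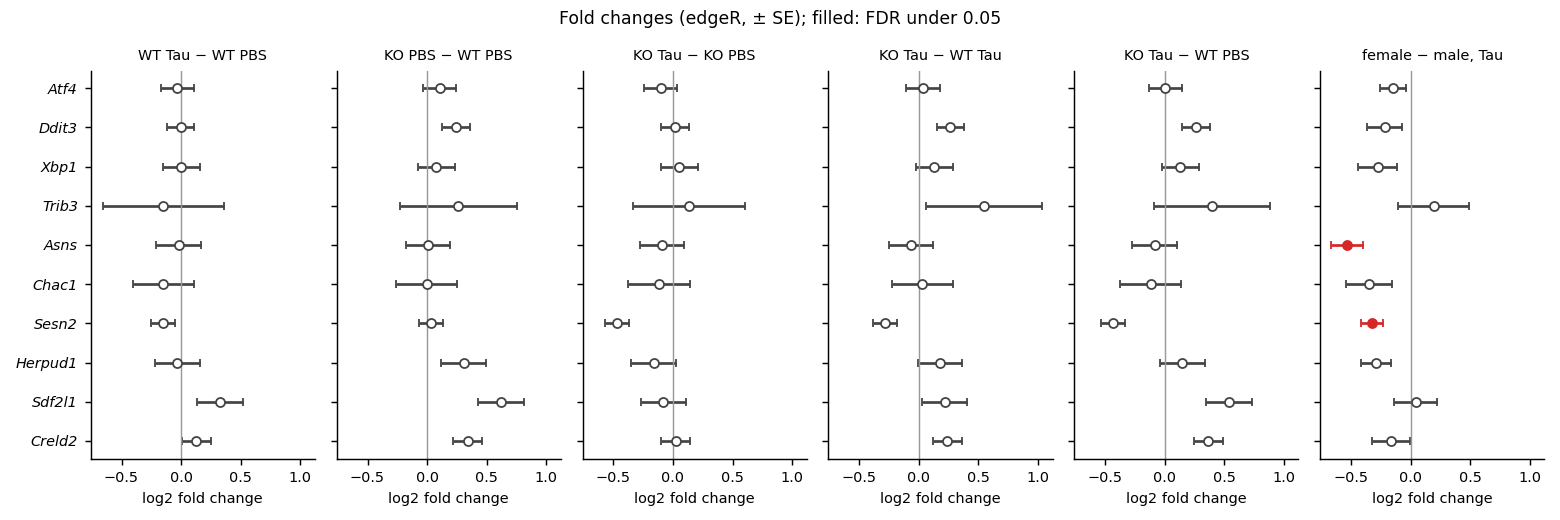
Log2 fold changes of the 10 genes (points) with their SE (bars) in 5 comparisons of male groups and in the comparison of females with males under Tau, from edgeR; filled red points passed an FDR of 0.05. Among males no point is filled, Sesn2 lies lowest in the 3 panels with KO Tau, and Asns and Sesn2 are filled in the sex panel.

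Females were compared with males within the Tau libraries, averaged over genotypes. Sex here is that of the labels, while the study's methods name male mice for bulk RNA sequencing. The sex labels were not checked against sex-linked genes. Asns was lower by 0.54 on the log2 scale (-0.54, SE 0.138, edgeR FDR = 0.0209) and Sesn2 by 0.33 (-0.33, SE 0.0916, FDR = 0.0272). Thus 2 of 10 members passed the FDR, both lower, beside 23.8% of all genes, and 3 of 10 had an unadjusted p under 0.05 beside 39.8%. The shares of the members are near those of all genes. The third was Herpud1, at -0.29 (SE 0.126, edgeR FDR = 0.108). Chac1 was at -0.35 (SE 0.192, FDR = 0.191), Xbp1 at -0.28 (SE 0.165, FDR = 0.226) and Atf4 at -0.15 (SE 0.11, FDR = 0.324). No member had libraries of the sexes that did not overlap (10.5% of all genes). Setting 711 aside and taking all 11 other males, Asns alone did not overlap, where 17.3% of all genes did not.

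Sex and the series of library numbers cannot be told apart, since the number in the label begins with 3 in every female library and with 7 in every male library. Markers of several cell types and signs of RNA composition moved with these values. All 8 astrocyte markers were above 0 in every library, and their summed level was 4279 to 5997 CPM in females and 2270 to 4072 CPM in the 6 male Tau libraries, with 711 highest. Summed microglial markers were at 563.8 to 693 CPM in females and 445.4 to 594.7 CPM in the male Tau libraries, and 8 endothelial markers at 360.9 to 466.7 CPM against 220.7 to 333.2 CPM. Summed thalamic markers were at 173 to 572.3 CPM against 177.6 to 293.4 CPM, which overlapped through female library 314. Summed oligodendrocyte markers were at 4865 to 12150 CPM, with 331 highest, against 3495 to 7564 CPM. Summed ribosomal protein genes were at 11240 to 16700 CPM in females, 13590 CPM in 711 and 9234 to 10150 CPM in the 5 other male Tau libraries. Summed nuclear-retained RNAs such as Malat1 were at 3953 to 6469 CPM in females, 6464 CPM in 711 and 2936 to 3830 CPM in the 5 other male Tau libraries. Library 711 was the lowest male library for 6 of 10 members, namely Atf4, Xbp1, Asns, Chac1, Sesn2 and Herpud1, and for 23.2% of all genes. The part of cell composition, of neighbouring tissue and of RNA composition in the sex difference was not tested. Without 711, the calls were Asns, Chac1, Sesn2 and Herpud1, all lower in females, and without library 331 or 773 there were 0. Of all genes, 6290 of 15450 were called without 711, 628 of 15739 without 331 and 1585 of 15403 without 773. Of the 11 fits with a library left out, Asns was called in 9 and Sesn2 in 4.

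**Figure D4:**
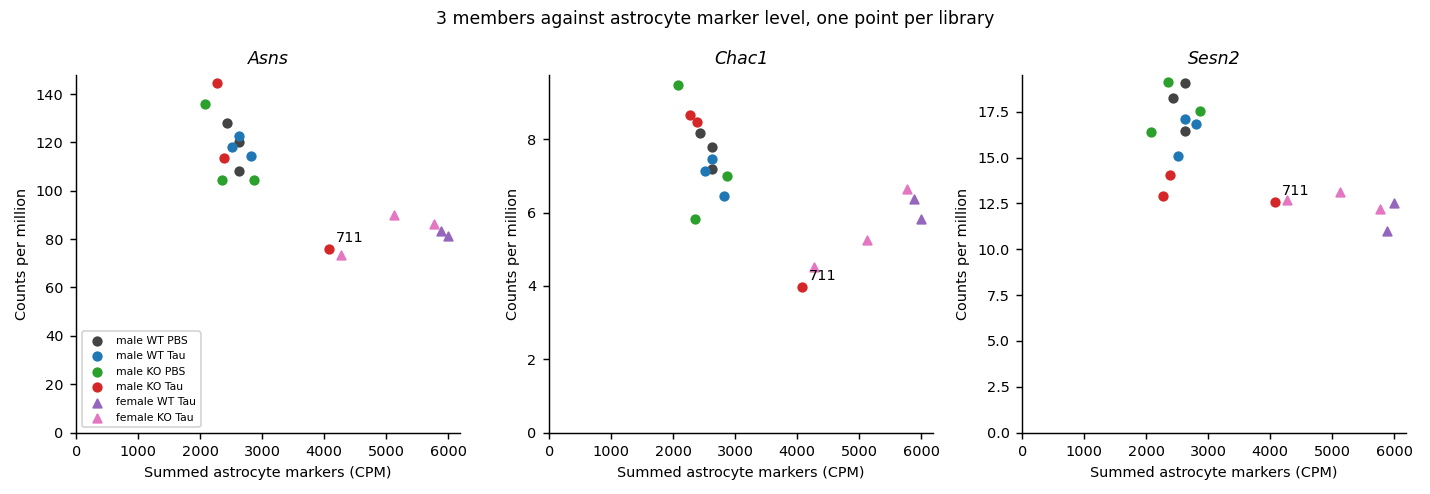
CPM of Asns, Chac1 and Sesn2 (vertical) against the summed CPM of 8 astrocyte markers (horizontal) in each of the 17 libraries, with circles for males and triangles for females. Library 711, at 4072 CPM of astrocyte markers, lies beside the female libraries in all 3 panels. In the Sesn2 panel, male KO Tau libraries 712 (12.9 CPM) and 713 (14.1 CPM) are also low, at 2270 and 2385 CPM of astrocyte markers.

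The genotype comparison in females, KO Tau against WT Tau, gave 0 of 10 members past the FDR (0.00649% of all genes) and 0 of 10 at an unadjusted p under 0.05 (2.89%). Members were higher in 2 of 10 cases, with a median of -0.11 against -0.01 over all genes. The interaction of sex and genotype under Tau gave 0 of 10 past the FDR (0%) and Sesn2 at an unadjusted p under 0.05 (2.94% of all genes), at 0.44 (SE 0.183, edgeR FDR = 0.978). The Sesn2 difference between the genotypes was therefore not shown to differ between the sexes.

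Within groups the members varied together in sets. Deviations of log2 CPM from the group mean were correlated for the 45 pairs over the 17 libraries, with permutation within groups, and 32 pairs were positive, with a median Pearson's r of 0.257. An adjusted permutation p under 0.05 (over the 45 pairs) was reached by 6. How often pairs of other genes reach such values was not examined, so the pairs are not shown to be particular to these genes. With Asns, the highest r of a member was 0.884 (Chac1), and a gene outside the 10, Atp6v1e1, reached 0.973. Chac1 and Herpud1 had r = 0.939 (permutation p = 0.00165, adjusted p = 0.0248) and Spearman's rho = 0.897 (permutation p = 0.0037, adjusted p = 0.0338). Without libraries 711 and 752, the 2 farthest from the median, r was 0.919, and within the 12 males it was 0.944. Atf4 joined this set, since Atf4 and Herpud1 had r = 0.916 (permutation p = 0.00153, adjusted p = 0.0248) and rho = 0.809 (permutation p = 0.00319, adjusted p = 0.0338), with r = 0.887 without libraries 711 and 314 and 0.969 within males. Atf4 and Chac1 had r = 0.902 (permutation p = 0.00234, adjusted p = 0.0263) and rho = 0.853 (permutation p = 0.00184, adjusted p = 0.0338), with r = 0.864 without the same libraries and 0.944 within males.

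Xbp1 and Herpud1 had r = 0.81 (permutation p = 0.00016, adjusted p = 0.0072) and rho = 0.858 (permutation p = 0.00027, adjusted p = 0.0122), with r = 0.716 without libraries 325 and 711 and 0.832 within males. Xbp1 and Chac1 had r = 0.757 (permutation p = 0.00464, adjusted p = 0.0348), while rho = 0.723 did not pass (permutation p = 0.0082, adjusted p = 0.0615), with r = 0.678 without the same libraries and 0.869 within males. The other set was that of the endoplasmic reticulum lumen genes. Sdf2l1 and Creld2 had r = 0.895 (permutation p = 0.00361, adjusted p = 0.0325) and rho = 0.853 (permutation p = 0.00375, adjusted p = 0.0338), with r = 0.846 without libraries 325 and 752 and 0.778 within males. The most negative pair was Ddit3 and Sesn2, at r = -0.754 (permutation p = 0.0145, adjusted p = 0.0816) and rho = -0.752 (permutation p = 0.0234, adjusted p = 0.117), with r = -0.661 without libraries 325 and 331 and -0.575 within males, which did not pass. Points of all pairs share the libraries, their depth and their cell composition.

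**Figure D5:**
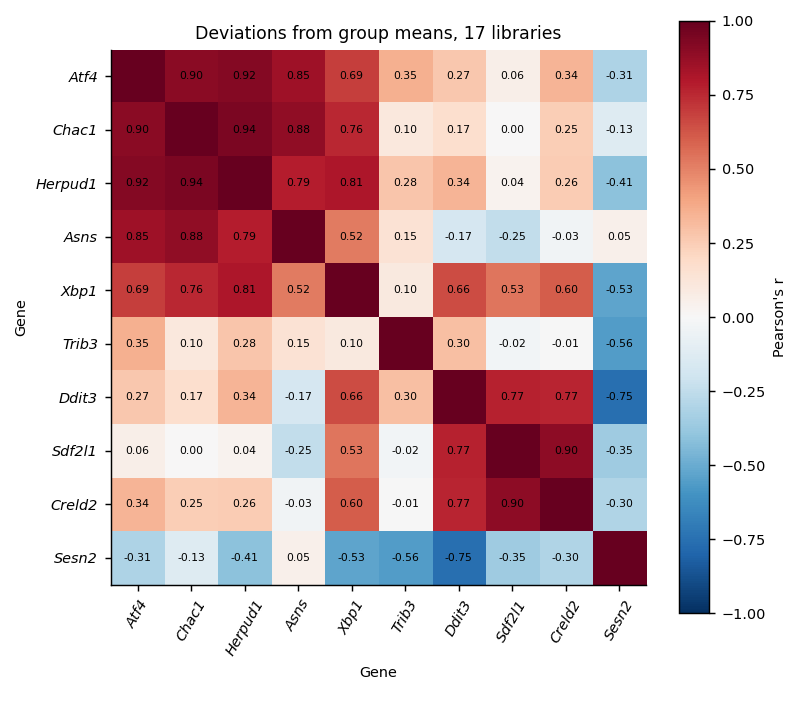
Pearson's r of each pair of the 10 genes, computed on deviations of log2 CPM from the group mean over 17 libraries (red positive, blue negative). Pairs among Atf4, Chac1, Herpud1 and Asns have r of 0.785 to 0.939. Those of Asns did not pass (adjusted permutation p = 0.0656 with Atf4, 0.094 with Chac1 and 0.174 with Herpud1). Sdf2l1 and Creld2 reach 0.895, and Sesn2 is negative with most of the others.

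Among 15593 genes compared, those whose deviations were most like Asns were Atp6v1e1 (r = 0.973), Ndfip1 (0.962), Rpap3 (0.954), Yars (0.951) and Atp6v1h (0.948). Yars is a tyrosyl-tRNA synthetase and Atp6v1e1 and Atp6v1h encode subunits of the vacuolar proton pump. For Sdf2l1 they were Tmem258 (r = 0.931), Uck1 (0.915), Triap1 (0.908), Manf (0.901) and Cd83 (0.9), of which Manf encodes an endoplasmic reticulum stress-inducible secreted factor. These are descriptions over 17 libraries.

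The wider pathways were followed in 6 lists that left out the 10 genes. No listed gene passed the FDR in any of the male comparisons or in the female genotype comparison. For male KO Tau against male WT PBS, the median log2 difference was 0.10 over the 24 chaperones and folding enzymes of the endoplasmic reticulum. Of these 24, 18 were higher. The median was -0.16 over the 11 genes listed with the unfolded protein sensors and their proteases, and -0.07 over 25 other ATF4 pathway genes. It was -0.06 over 15 genes of eIF2alpha control, -0.03 over 14 aminoacyl-tRNA synthetases with Xpot and -0.05 over 20 genes of endoplasmic reticulum-associated degradation. The median over all genes was -0.00. The extremes with a mean of at least 5 CPM included Slc7a11, the cystine transporter, at 0.53 (SE 0.132, edgeR FDR = 0.783), whose level was 56.6 ± 10.4 CPM in male KO Tau against 39.5 ± 1.1 CPM in male WT PBS (SD over 3 libraries each). Slc7a3, a cationic amino acid transporter, was at -0.42 (SE 0.266, FDR = 0.826). Ppp1r15a, which encodes the stress-induced eIF2alpha phosphatase subunit GADD34, was at 0.32 (SE 0.134, FDR = 0.783) and Eif2b3 at -0.26 (SE 0.113, FDR = 0.783).

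Of the remaining extremes in that comparison, Cnpy2 was at 0.30 and Ero1l, an oxidase of disulfide formation, at -0.23. Ern1, which encodes the sensor IRE1, was at -0.28 and Atf6 at 0.05. Vimp was at 0.19, Nploc4 at -0.18, Lars at 0.07 and Xpot at -0.14. None of these passed (edgeR FDR from 0.783 to 0.973). Under PBS the chaperone list had positive differences of male KO from male WT for 22 of 24 genes, with a median of 0.11 and 5 at an unadjusted p under 0.05. The synthetase list had 13 of 14, with a median of 0.11 and 1 at an unadjusted p under 0.05. No gene of either list passed the edgeR FDR there, and over all genes 52.5% were positive and 4.42% had an unadjusted p under 0.05.

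Between the sexes under Tau 23.8% of all genes were called in either direction, and whether any list differed from that share was not tested. Of the 14 synthetases with Xpot, 8 were lower in females and 0 higher, namely Aars (-0.68, SE 0.132, edgeR FDR = 0.00917), Wars, Vars, Yars, Gars, Sars, Cars and Iars (-0.25, SE 0.0812, FDR = 0.0456), with the others between. Of the 25 other ATF4 pathway genes, 7 were higher and 0 lower. They were Cth, a cysteine-producing lyase (1.14, SE 0.156, edgeR FDR = 0.00288), the transcription factor Atf3 (1.07, SE 0.303, FDR = 0.0279), the alanine aminotransferase Gpt2 (0.65), the mTORC1 inhibitor Ddit4 (0.50), the serine synthesis enzyme Psat1 (0.41), Slc7a11 (0.38) and Cebpg (0.32). The differences of Asns and Sesn2 had the sign of the called synthetases, opposite to that of these 7.

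Of 15 genes of eIF2alpha control, Gcn1l1 (-0.41), Ppp1r15a (-0.37), Eif2ak1 (-0.37), Eif2b2 (-0.33) and Eif2b4 (-0.31) were lower in females, and Eif2s1 (0.38), which encodes eIF2alpha, and the kinase gene Eif2ak2 (0.79) were higher. Of the 24 chaperones and folding enzymes, Dnajc3 (0.46), Fkbp14 (0.43) and Ppib (0.25) were higher and 0 lower. Of 20 degradation genes, Syvn1 (-0.50), Vcp (-0.48), Os9 (-0.39) and Nploc4 (-0.26) were lower and Edem3 (0.26) was higher. Of the 11 genes listed with the sensors and proteases, Atf6b (-0.27) and Wfs1 (-1.02) were lower. Wfs1 itself encodes neither a sensor nor a protease. Wfs1 is also 1 of the 8 CA1 markers, whose summed level was 454.9 to 927.6 CPM in females and 681.5 to 1041 CPM in the male Tau libraries.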

How the data were processed

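Raw counts of reads for each gene symbol were deposited, with no normalization. Per the labels and the study's methods, the authors aligned reads with STAR 2.5.2 to GRCm38 (mm10), processed them with SAMtools 1.1 and counted exon reads with HTSeq 0.9.1 in reverse-stranded mode. The annotation release was not given in the sources used here. Whether the library kit marked strand was not stated, so reads of overlapping genes on opposite strands may have been mixed. In GENCODE M21, Ddit3 overlaps Mars and Gm4189 on the opposite strand, and Herpud1 overlaps Gm15890 on the opposite strand. On the same strand, Ddit3 overlaps a second gene ID of its own symbol and Sesn2 overlaps Gm12981. Both kinds of overlap make the counts of these members uncertain. The labels' extraction protocol opens with perfusion by fixative, which the study's methods name for histology only.

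The test was the quasi-likelihood F-test in edgeR 4.0.16 under R 4.3.3 (TMM factors, filterByExpr with minimum count 10 and minimum total 15, Benjamini-Hochberg FDR 0.05). Comparisons within males used 1 fit of 12 libraries (15098 genes), those with females 1 fit of 11 Tau libraries (15419 genes), and the test over 6 groups all 17 libraries (15594 genes). All 10 members passed the filters. Of the 12 comparisons, only male KO Tau against male WT PBS was first tried on simulated data, with edgeR and with DESeq2. Fold changes are on the log2 scale with their SE, and CPM were scaled to library totals. Correlations used log2 CPM with prior count 2 and 100000 permutations within groups, two-sided. Alternatives were DESeq2 1.42.0, RLE factors, no filter, other sets of libraries and each library left out. The labels call the libraries of a group biological replicates. No 2 libraries agreed within sampling noise (chi-square per gene at least 3.1).

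All members were named, with every listed gene past the FDR, the extreme genes of each list (male KO Tau compared with male WT PBS, mean of at least 5 CPM), and the 5 genes most like Asns and Sdf2l1. The rule for the members used symbols only, yet the members, lists and tests were chosen with earlier results of these data known. Dele1 was not matched in the table, and Mars1 was there under its older symbol, Mars.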

Additional observations from a re-analysis of the deposited data

How the results depend on the processing

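The number of members past the FDR was 0 in each male comparison and in the female ones under every alternative except the following. With the DESeq2 Wald test, or without libraries 711 and 752 together, 1 member (Sesn2) was called for male KO Tau against male KO PBS, beside 0.328% and 10.4% of all genes. For male KO Tau against male WT Tau, 1 member (Herpud1) was called without 711 and 752 and in the fits of only these groups without 711, by edgeR and by DESeq2. For male KO Tau against male WT PBS, 1 member (Herpud1) was called in the fits of only these groups without 711. Over the 6 groups 1 member (Sesn2) was called with RLE factors, beside 2879 of 15594 genes. When a library was left out, 1 to 4 members were called (4 without 711, beside 4703 of 15572 genes). For females against males, 0 to 4 were called when a library was left out (0 without 331 or 773, 4 without 711). The number of all genes called ran from 628 of 15739 (without 331) to 6290 of 15450 (without 711).

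Of 684 alternative fold changes over 38 results, 650 kept direction and side of the threshold, 9 gained and 9 lost a call, and 16 turned sign, in 6 results. Leaving out a library, the log2 difference of male KO Tau from male WT PBS ran from -0.105 to 0.143 for Atf4, from -0.306 to 0.12 for Asns, from -0.279 to 0.152 for Chac1 and from -0.00873 to 0.306 for Xbp1, with the highest values without 711 and the lowest without 712. For Herpud1 it ran from 0.0174 without 712 to 0.327 without 711, and from 0.0428 to 0.357 against male WT Tau. That of Sesn2 between male KO PBS and male WT PBS ran from -0.0375 to 0.0874, and that of Ddit3 between female KO Tau and WT Tau from -0.544 to 0.0421. Without 711 and 752, and in edgeR on only the groups compared without 711, Asns was at 0.121 and Chac1 at 0.153, and in DESeq2 at 0.124 and 0.156. Fits without 711 or 752 were added after seeing the data where they pooled both or kept only the groups compared. No paired analysis was possible because no 2 groups share library numbers. At 5 to 18 counts per library, depth limits Trib3.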
